A study of Takifugu obscurus with 9 samples.

Results

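Among 46444 assembled features of the obscure puffer kidney transcriptome, 3 met a rule for being raised in every library taken 12 h and 48 h after poly(I:C). They were an uncharacterized protein with an AIG1 domain (LOC101063328, feature TRINITY_DN23546_c0_g1), a short feature matched to the 40S ribosomal protein S15, and a short feature matched to a putative reverse transcriptase. The members were chosen by measured values. A feature had to have a protein match in a fish species, and its lowest TPM over the 6 libraries of 12 h and 48 h had to reach 5 TPM and 2 times the highest control value plus 1 TPM. Features whose match was named as a septin were left out, and 1 of them passed both thresholds. Of 21160 features with a fish match, 3 met this rule, which is 0.0142%. Because 12 h and 48 h against 0 h chose the members, those differences are given below as descriptions with no test. Only 48 h against 12 h was tested. The rule did not compare these times, but it required high values at both. It thus left out features that were back near control levels by 48 h.

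The study sequenced kidney RNA of Takifugu obscurus, a pufferfish, at 3 months of age. The groups were controls at 0 h and fish given poly(I:C) and sampled at 12 h or 48 h, with 3 libraries each. The labels give no strain, genotype, dose or route, and do not say whether a library is 1 fish or whether controls were injected. No untreated group was sampled at 12 h or 48 h, so poly(I:C) and the time or handling since 0 h cannot be told apart. Each p-value reflects only how these libraries vary. Since a library is not known to be 1 fish, that variation may be technical. Levels are TPM, a transcript abundance scaled by feature length and library size.

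Poly(I:C) is a synthetic double-stranded RNA that cells sense as they would viral RNA, through Toll-like receptor 3 and RIG-I-like receptors, which leads to interferon production. The kidney of bony fish combines nephrons with blood-forming and lymphoid tissue. The AIG1 domain is a GTP-binding domain, shared by the GTPases of immunity-associated proteins (GIMAPs), which in mammals act mainly in lymphocytes. Ribosomal protein S15 is a part of the small ribosomal subunit, and reverse transcriptases, which copy RNA into DNA, are encoded by retrotransposons that fish genomes carry in many copies.

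The libraries did not stand equally close. Steps between low TPM values gave an estimated 24400000 to 31900000 reads per library. Control libraries 1 and 2 were closer to each other (Pearson correlation across features 0.985) than any other pair within a group (0.857 to 0.967). The correlations were of log2(TPM + 1), over features averaging at least 10 TPM. The median squared difference between control libraries 1 and 2 was 1.6 times that of sampling noise, against 3.81 to 11.2 times in those other pairs. These are ratios of variances. Control libraries 1 and 2 were counted as separate, but these values cannot show whether they came from separate material. Control library 3 stood apart. Its summed TPM of 15 T and NK cell markers was 1058, against 240 and 248 in the other controls, 453 to 614 at 12 h and 575 to 635 at 48 h. The 9 erythroid markers summed to 71595 TPM in control library 3, and to 19958 and 21288 in the other controls. Their sums were between 10714 and 11611 at 12 h, and 4315 and 17678 at 48 h. None of the 15 or 9 markers was at 0 in all libraries of a group. In bulk tissue, fewer cells of a type and less RNA per cell cannot be told apart. Markers of both nephron cell types listed were detected. The 7 podocyte markers summed to between 148 and 182 TPM at 0 h, 63.4 and 74.5 at 12 h, and 109.6 and 194 at 48 h, so every 12 h library was below every other library. The 16 proximal tubule markers summed to 323 TPM in control library 3, and to 804 and 776 in the other controls. Their sums were between 274 and 395 at 12 h, and 251 and 499 at 48 h. Of these markers, 1 was at 0 in every 12 h library. The part of these shifts in the results was not tested.

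**Figure D1:**
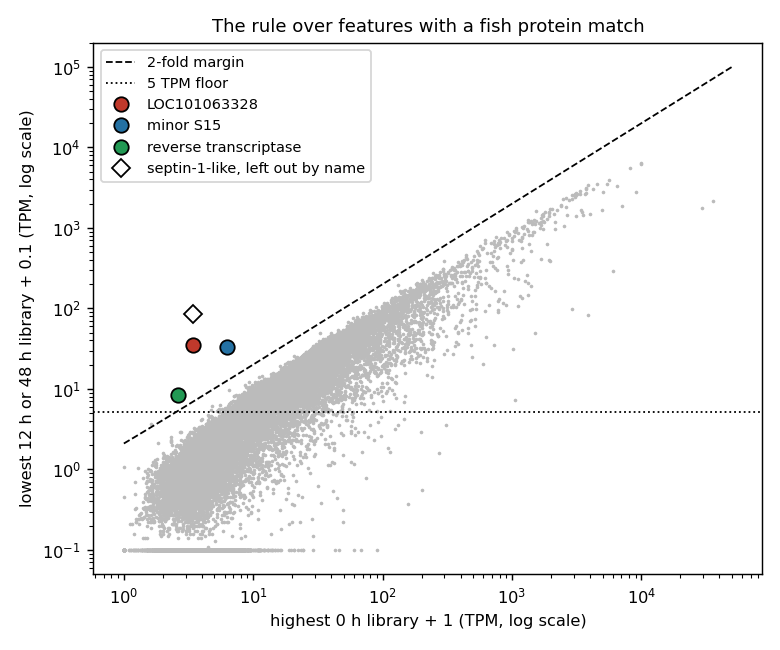
Each grey point is a feature with a fish protein match, placed by its highest 0 h library plus 1 TPM (x, log scale) and its lowest 12 h or 48 h library plus 0.1 TPM (y, log scale). The 3 coloured members and the septin-1-like feature, left out by its name, are the points above both the dashed 2-fold margin and the dotted 5 TPM floor.

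The members cleared the margin by different amounts. The lowest value after poly(I:C) was 10.3 times the highest control plus 1 TPM for LOC101063328, 5.34 times for the S15 feature and 3.15 times for the reverse transcriptase feature. Just outside the margin lay an unmatched feature at 1.87 times, a protein S100-A1-like feature at 1.501 times, LOC105419523 at 1.49 times and a mitochondrial NADH dehydrogenase flavoprotein 1-like feature at 1.48 times. Just under the 5 TPM floor lay an unmatched feature whose lowest value was 4.95 TPM and LOC112136508 at 3.56 TPM. Either time alone selected more features, 49 with a fish match at 12 h and 8 at 48 h. The number of members rested on single libraries. Without control library 3 it was 10 and without 12 h library 1 it was 5. The 7 features gained without control library 3 were matched to perforin-1-like, granzyme K-like, NK-lysin-like, C-C motif chemokine 18-like, CD59-like, plexin-C1 and LOC105419150, of which perforin, granzymes and NK-lysins are products of cytotoxic lymphocytes. Those gained without 12 h library 1 were 2 features matched to interferon-induced very large GTPase 1-like.

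**Figure D2:**
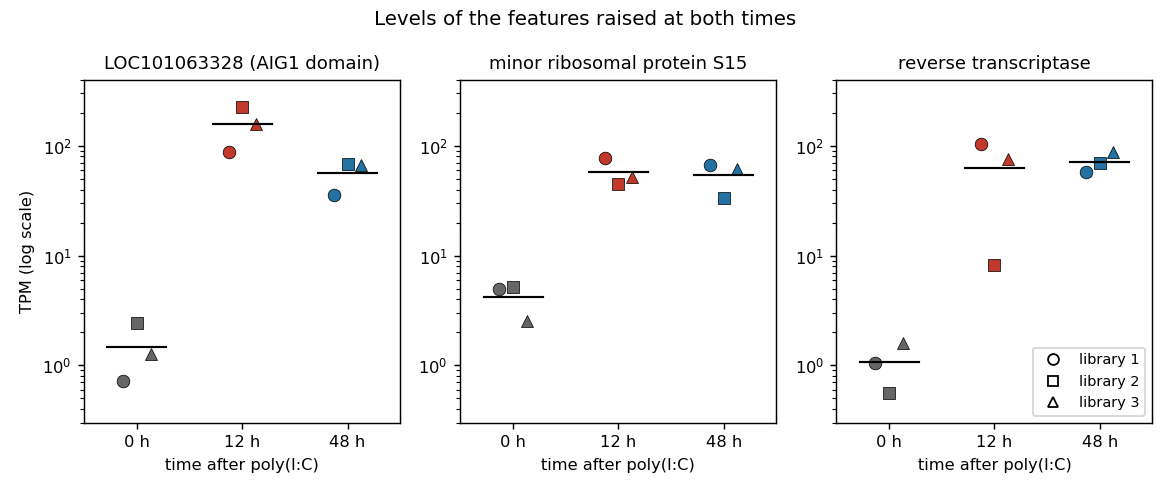
TPM (log scale) of the 3 members in each of the 9 libraries by time after poly(I:C), with a bar at each group mean and a symbol for the library number. Every 12 h and 48 h library lies above every control, and the reverse transcriptase feature in 12 h library 2, at 8.20 TPM, lies closest to its controls.

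LOC101063328 had the widest range of the members. This 2017-nt feature, assembled as 12 transcripts, stood at 0.72, 2.44 and 1.27 TPM in the controls, 88.3, 228 and 157 TPM at 12 h, and 35.3, 67.6 and 66.6 TPM at 48 h. All 12 h libraries were above all 48 h libraries, and both sets were above the controls, where an estimated 20.1 to 89.4 reads lay behind each value. The means were 1.48 ± 0.878 TPM at 0 h, 158 ± 69.7 at 12 h and 56.5 ± 18.4 at 48 h (SD, n = 3 each). Over all tested features, 8.25% had every 12 h library and 12.3% every 48 h library above every control, which the rule required of the members. On the log2(TPM + 1) scale LOC101063328 was 5.96 above the controls at 12 h and 4.54 above at 48 h.

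From 12 h to 48 h, LOC101063328 differed by -1.42 on the log2(TPM + 1) scale (SE 0.39, 95% interval -2.29 to -0.55), and the difference did not pass the threshold (limma adjusted p = 0.0881). In this comparison, 0.611% of the 45473 tested features were called lower and 1.07% higher, at an adjusted p under 0.05. No member was called in either direction, and 1, LOC101063328, had an unadjusted p under 0.05 by limma, as had 21.5% of tested features. The rule required high values at both times, which limits such calls, so nothing is read from their number beside these shares. The 48 h libraries lay wholly below the 12 h libraries for 7.61% of tested features, LOC101063328 among them. Without 12 h library 1, its lowest at that time, the difference was -1.78 and was called (limma adjusted p = 0.0429). Leaving out each library in turn gave -1.78 to -1.11, with limma adjusted p from 0.0429 to 0.231.

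The AIG1 family, GTP-binding proteins, was taken as every feature with an AIG1 annotation. It held 24 other features, 19 with the Pfam domain and 5 with the orthologous group name alone. At 12 h against 0 h, 4 of these, 2 of them without the Pfam domain, rose and 1 fell by limma, against 0.592% higher and 0.831% lower of all tested features. At 48 h against 0 h, 1 rose and 0 fell, beside 0.0088% and 0.0022% of all features. That 1, also among the 4 at 12 h, was the septin-1-like feature, which passed the rule's thresholds and was left out by name, so nothing is read from its calls against the controls. At 48 h against 12 h, 0 rose and 3 fell, beside 1.07% and 0.611% of all tested features. Of the 24, 9 had an unadjusted p under 0.05, as had 21.5% of all tested features. Median log2 differences over the 24 were 0.016 at 12 h and -0.252 at 48 h, beside -0.070 and 0.131 over all tested features. The summed TPM of the whole family was 680 ± 174 at 0 h, 3174 ± 1273 at 12 h and 685 ± 288 at 48 h (SD, n = 3 each). LOC101063328 made up 0.222% of that sum at 0 h, 4.91% at 12 h and 8.60% at 48 h, a description only, since the rule chose it on these values.

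These counts, of which those called higher against 0 h include the septin-1-like feature, depended on single libraries and on the settings. The 4 features called higher at 12 h became 1 without control library 1, control library 2, 12 h library 2 or 12 h library 3, and 2 without 48 h library 2. At an adjusted p under 0.01 the count was also 1, the septin-1-like feature, from whose calls against the controls nothing is read. With control libraries 1 and 2 averaged, or without the variance trend, the count was 1 too. The 1 called lower at 12 h was kept when control library 3 or 48 h library 3 was left out, and lost when any of the other 7 was. It was also lost with 0.1 TPM added before the log, a 5 TPM filter, quantile normalization or no variance trend. A block for the replicate number, only the compared groups, control libraries 1 and 2 averaged, or an adjusted p under 0.01 lost it too. The 1 called higher at 48 h was lost without 48 h library 3, with 0.1 TPM added before the log, or without the variance trend. The 3 called lower from 12 h to 48 h became 0 without 12 h library 3 or 48 h library 2, 1 without 12 h library 2, 2 without control library 2 or 48 h library 1, and 5 without control library 3.

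**Figure D3:**
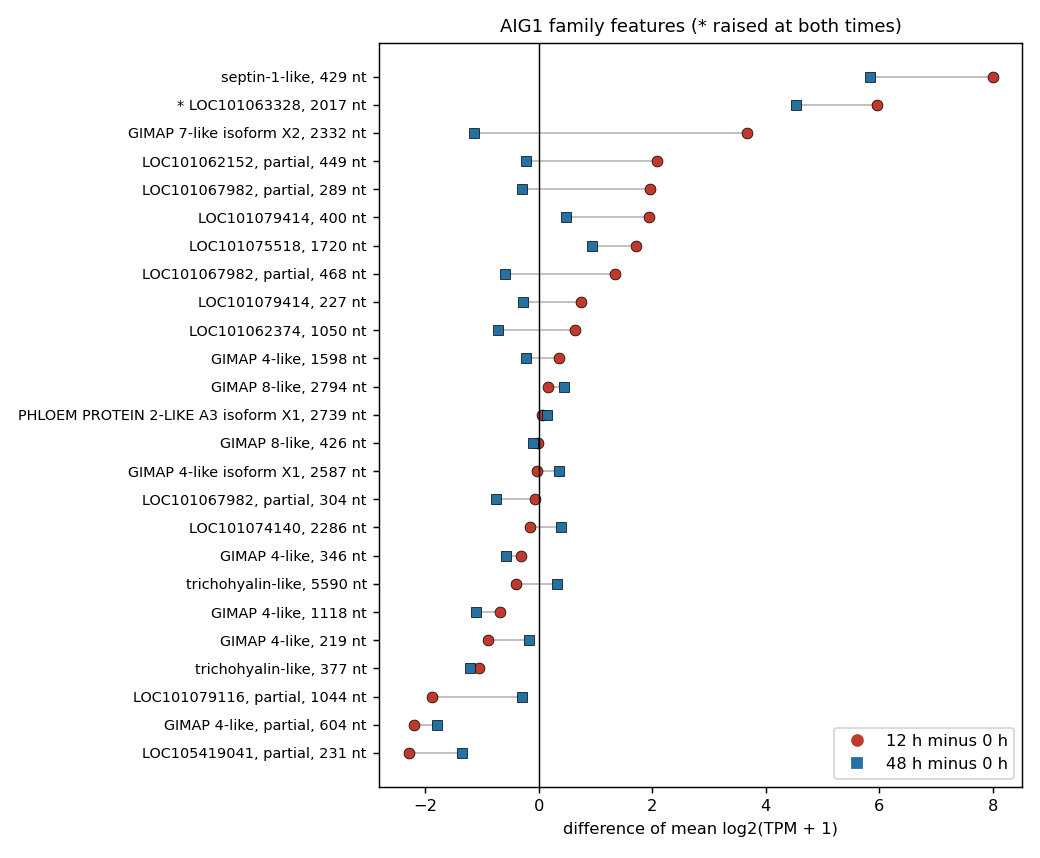
Difference of mean log2(TPM + 1) from the controls at 12 h (red circles) and 48 h (blue squares) for the 25 AIG1 family features, labelled by protein match and length and ordered by the 12 h difference. LOC101063328 (asterisk) and the septin-1-like feature, which both passed the rule's thresholds, are far to the right at both times, and the GIMAP 7-like feature is at 3.67 at 12 h and -1.14 at 48 h.

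The septin-1-like feature, whose Pfam annotation is the AIG1 domain and which the rule removed by name, was at 0, 1.11 and 2.40 TPM in the controls, 320, 725 and 527 TPM at 12 h, and 85.6, 86.9 and 177 TPM at 48 h. Like LOC101063328 it was above its controls in every library at both times, and its margin over the highest control plus 1 TPM was 25.2 times. A GIMAP 7-like feature, matched to a GTPase of the GIMAP family, was at 148, 160 and 30.2 TPM in the controls, 661, 1856 and 1256 TPM at 12 h, and 38.5, 42.5 and 39.8 TPM at 48 h. It rose by 3.67 at 12 h (SE 0.58, limma adjusted p = 0.0239) and fell by 4.81 from 12 h to 48 h (SE 0.58, limma adjusted p = 0.0102), and its 48 h libraries lay within the range of its controls. The level of LOC101063328 was 0.123 to 0.134 times that of the GIMAP 7-like feature at 12 h and 0.917 to 1.67 times at 48 h, both in TPM.

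The remaining features called higher at 12 h were uncharacterized and carried the AIG1 family name of the orthologous group without the Pfam domain. A 289-nt feature matched to LOC101067982 averaged 22.8 ± 2.14 TPM at 0 h, 98.8 ± 47.0 at 12 h and 18.8 ± 4.79 at 48 h (limma adjusted p = 0.0311 at 12 h against 0 h and 0.0186 at 48 h against 12 h). A 400-nt feature matched to LOC101079414 averaged 25.9 ± 2.65, 102.7 ± 13.4 and 40.3 ± 21.2 TPM at 0, 12 and 48 h (limma adjusted p = 0.0311 at 12 h against 0 h and 0.0579 at 48 h against 12 h). A 449-nt feature matched to LOC101062152, which has the domain, averaged 70.6 ± 10.4, 301.8 ± 8.05 and 70.9 ± 40.9 TPM, and it fell from 12 h to 48 h (limma adjusted p = 0.0358) while its 12 h difference of 2.09 missed the threshold (limma adjusted p = 0.0530). All of these means are over 3 libraries with their SD.

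The assembly placed LOC101063328 in a read cluster with an AIG1 fragment and a ubiquitin ligase match, so reads may have been divided among them. The 231-nt fragment matched to LOC105419041 was at 7.53, 4.98 and 3.10 TPM in the controls, 0, 0.77 and 0 TPM at 12 h, and 0.75, 0.80 and 2.95 TPM at 48 h. It moved opposite to LOC101063328 at 12 h, falling by 2.29 (SE 0.45, limma adjusted p = 0.0435). Its values were near the floor. This was the family feature called lower at 12 h, and that call depended on single libraries and on the settings, as given above. Another neighbour was a 2351-nt feature matched to the probable E3 ubiquitin ligase ARI7. It was at 100.6, 103.5 and 44.8 TPM in the controls and 109.4, 248 and 182 TPM at 12 h. At 48 h it was at 25.4, 52.0 and 66.1 TPM. Its highest 12 h library was the same as that of LOC101063328, its groups at 0 h and 48 h overlapped, and none of its differences was called (limma adjusted p = 0.246, 0.519 and 0.0588 for 12 h over control, 48 h over control and 48 h over 12 h). The level of LOC101063328 went from 0.00716 to 0.0283 times that of this neighbour in the controls to 0.807 to 0.918 times at 12 h and 1.01 to 1.39 times at 48 h, in TPM. A separate 238-nt fragment with the same match, LOC101063328, lay in the read cluster of the septin-1-like feature and was at 1.75, 9.91 and 5.04 TPM in the controls, 0 in all 12 h libraries and 8.33, 4.46 and 1.38 TPM at 48 h. That fragment was lowest when LOC101063328 was highest, and its differences were not called (limma adjusted p = 0.0737 at 12 h against 0 h and 0.0733 at 48 h against 12 h).

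The S15 member was a minor feature beside the main S15 feature of the kidney. This 478-nt feature, TRINITY_DN22379_c1_g2, was at 4.96, 5.22 and 2.52 TPM in the controls, 77.0, 45.2 and 51.5 TPM at 12 h, and 67.4, 33.2 and 61.7 TPM at 48 h. The 12 h and 48 h libraries overlapped, and all were above the controls. The means were 4.23 ± 1.49 TPM at 0 h, 57.9 ± 16.8 at 12 h and 54.1 ± 18.3 at 48 h (SD, n = 3 each), which put it 3.50 and 3.38 above the controls on the log2(TPM + 1) scale. From 12 h to 48 h it differed by -0.12 (SE 0.32, 95% interval -0.85 to 0.60, limma adjusted p = 0.857). That sign turned on leaving out 12 h library 1, to 0.098, and on leaving out 48 h library 2, to 0.189.

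The main S15 feature of the same read cluster, 968 nt long and matched to a gar, was at 804, 890 and 869 TPM in the controls, 923, 686 and 739 TPM at 12 h, and 820, 720 and 815 TPM at 48 h. Its groups overlapped, and none of its differences was called (limma adjusted p = 0.697, 0.748 and 0.966 for 12 h over control, 48 h over control and 48 h over 12 h). All 4 features assigned to S15 summed to 862 ± 45.0 TPM at 0 h, 843 ± 141 at 12 h and 843 ± 71.7 at 48 h (SD, n = 3 each). The share of that sum held by the minor feature was 0.493% ± 0.178 at 0 h, 6.79% ± 0.802 at 12 h and 6.32% ± 1.71 at 48 h. This share contains the value on which the minor feature was chosen, so it is not separate evidence. Counting can divide reads between near-identical copies, so the level of either feature is uncertain, and that division was not tested.

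**Figure D4:**
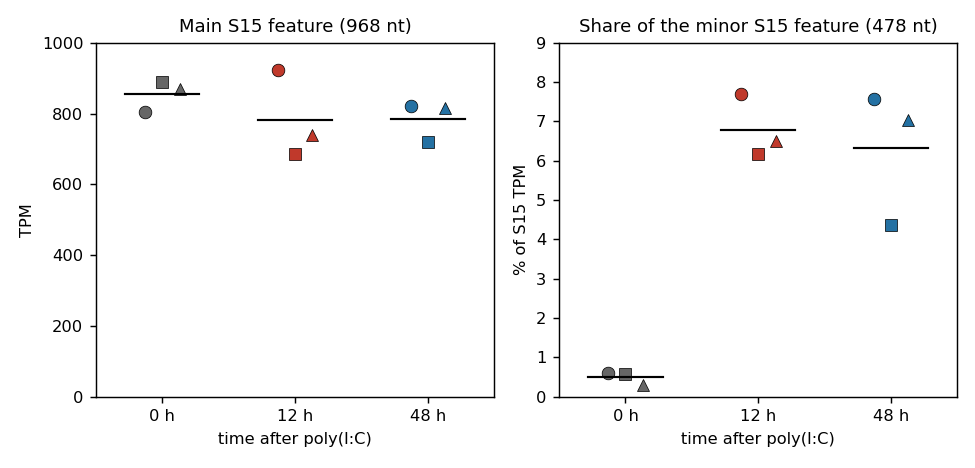
Left, TPM of the main 968-nt S15 feature in each library; right, percent of all S15 TPM held by the minor 478-nt feature, both by time after poly(I:C) with a bar at each group mean. The main feature stays between 686 and 923 TPM while the mean share of the minor feature goes from 0.493% to 6.79% and 6.32%.

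Of 134 further ribosomal protein features with a fish match, limma called 0 in each of the 3 comparisons. Of all tested features it called 0.592% higher and 0.831% lower for 12 h over control. The shares were 0.0088% and 0.0022% for 48 h over control, and 1.07% and 0.611% for 48 h over 12 h. A count of 0 among 134 is near these shares. In the same order of comparisons, 11, 12 and 8 of the 134 had an unadjusted p under 0.05, beside 15.9%, 11.1% and 21.5% of all tested features. Their log2 differences ran from -1.11 to 0.66 at 12 h and from -0.31 to 1.26 at 48 h, with medians of 0.013 and 0.119. Besides other S15 features, the read cluster of the S15 member held features with unrelated names. Among them were a 5391-nt feature matched to phosphodiesterase 10A, averaging 18.8 TPM in the controls, and interleukin-12 receptor subunit beta-2-like fragments under 6 TPM.

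The reverse transcriptase member was the least even of the 3. This 297-nt feature, TRINITY_DN19632_c0_g3, was at 1.05, 0.56 and 1.6 TPM in the controls, 105.0, 8.20 and 75.9 TPM at 12 h, and 57.3, 69.2 and 87.5 TPM at 48 h. Library 2 stood far below the other 12 h libraries, with a 12.8-fold range among them, and the 48 h libraries lay inside that range. The control values came from an estimated 1.41 to 3.65 reads each, so the size of the difference from the controls is loosely set. The read estimate was set on single-transcript features, and this feature was assembled as 4 transcripts, so these numbers are rough. The means were 1.07 ± 0.520 TPM at 0 h, 63.0 ± 49.7 at 12 h and 71.3 ± 15.2 at 48 h (SD, n = 3 each), or 4.38 and 5.14 above the controls on the log2(TPM + 1) scale.

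From 12 h to 48 h the reverse transcriptase member differed by 0.76 (SE 0.74, 95% interval -0.90 to 2.42, limma adjusted p = 0.582). Without 12 h library 2 the sign turned, to -0.34, and leaving out each library in turn gave -0.34 to 1.42. The direction between 12 h and 48 h rested on that library.

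The table held 115 other features matched to fish reverse transcriptases, enzymes of mobile elements, of which 113 were tested. At 12 h against 0 h, 1 rose and 0 fell by limma, beside 0.592% and 0.831% of all tested features. At 48 h against 0 h limma called 0 in either direction, with 10 at an unadjusted p under 0.05, beside 11.1% of all tested features. From 12 h to 48 h, 1 rose and 0 fell, beside 1.07% and 0.611%. Their median log2 differences were -0.16 at 12 h and 0.19 at 48 h, and their ranges were -2.61 to 1.65 and -1.21 to 1.66; the member, chosen for high values at both times, is not ranked among them. The set summed with the member to 994 ± 128 TPM at 0 h, 1021 ± 62.6 at 12 h and 1095 ± 253 at 48 h (SD, n = 3 each), of which the member, chosen on these values, was 0.113%, 6.23% and 6.59%. The feature that rose at 12 h averaged 3.91 ± 0.747, 11.3 ± 2.69 and 4.88 ± 1.34 TPM over the 3 times (limma adjusted p = 0.0397). The feature that rose from 12 h to 48 h averaged 5.35 ± 1.45, 2.95 ± 0.964 and 11.2 ± 4.89 TPM (limma adjusted p = 0.0444). The number called at 48 h against 12 h was between 0 and 6 when each library was left out, with 6 once control library 3 was left out, 3 once 12 h library 1 was and 2 once 48 h library 1 was. It was 0 on leaving out any of the other 6 libraries.

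**Figure D5:**
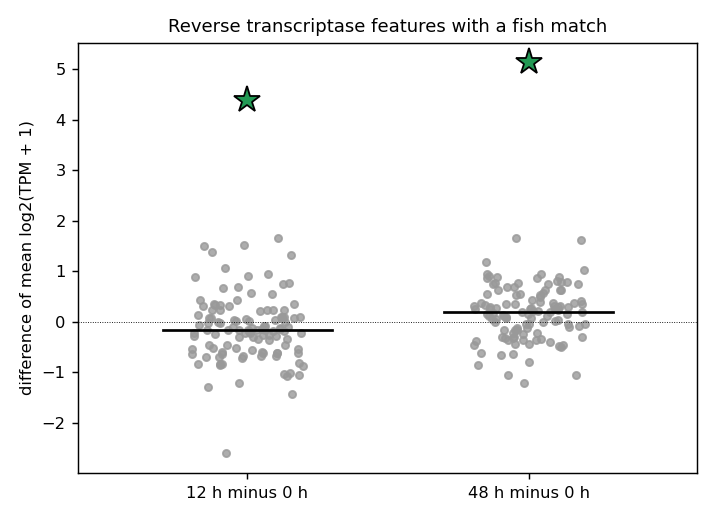
Difference of mean log2(TPM + 1) from the controls at 12 h and 48 h for 115 features matched to fish reverse transcriptases (grey points, spread sideways for visibility; bar at the median) and for the member (green star). The star is at 4.38 and 5.14, values on which the member was chosen, and the medians of the grey points are -0.16 and 0.19.

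The read cluster of the reverse transcriptase member held 2 further features above it in every control and in 12 h library 2, and below it in the other libraries after poly(I:C). A 547-nt reverse transcriptase-like feature was at 3.96, 4.20 and 8.54 TPM in the controls, 18.7, 11.4 and 16.9 TPM at 12 h, and 8.87, 15.3 and 11.7 TPM at 48 h. All of its 12 h and 48 h libraries were above its highest control, and its difference of 1.39 at 12 h was not called (SE 0.30, limma adjusted p = 0.0618). A 300-nt feature with no protein match was at 2.42, 3.74 and 3.85 TPM in the controls, 16.6, 9.90 and 16.6 TPM at 12 h, and 5.31, 16.4 and 6.72 TPM at 48 h. It rose by 1.81 at 12 h (limma adjusted p = 0.0493). In the 547-nt and 300-nt neighbours, as in the member, library 2 was the lowest of the 12 h libraries. The cluster also held features of 243 and 240 nt with no protein match. These differed by -0.17 and -0.10 at 12 h against 0 h (limma adjusted p = 0.862 and 0.960). In neither was library 2 the lowest of the 12 h libraries.

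The members did not share a pattern among the libraries. At 12 h, LOC101063328 was highest in library 2, while the S15 and reverse transcriptase features were lowest there and highest in library 1. At 48 h, library 1 was the lowest for LOC101063328 and the reverse transcriptase feature, and library 2 was the lowest for S15. Library 3 lay between the other 12 h libraries for all 3 members.

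The antiviral and proteasome genes of the kidney gave calls at 12 h against 0 h and none at 48 h against 0 h. Over all tested features, limma called 0.592% higher and 0.831% lower at 12 h against 0 h. At 48 h against 0 h it called 0.0088% and 0.0022%, and from 12 h to 48 h 1.07% and 0.611%. The 39 interferon-stimulated genes found were matched to 38 features, irf3 and irf7 sharing 1, and 3 of the features are also in the proteasome list and 3 in the JAK-STAT list. Of the 39, 3 rose at 12 h against 0 h, 0 were called at 48 h against 0 h and 10 fell from 12 h to 48 h. Among them rtp4, a receptor transporter, averaged 134 ± 73.2, 1883 ± 1375 and 61.6 ± 32.3 TPM at 0, 12 and 48 h. Of 40 proteasome genes, 23 rose at 12 h, 0 were called at 48 h against 0 h and 10 fell from 12 h to 48 h. The proteasome core subunit psma3 averaged 131 ± 30.01, 354 ± 14.9 and 170 ± 3.61 TPM. Of 17 ubiquitin and cell death genes and of 21 JAK-STAT feedback and cytokine receptor genes, the latter matched to 20 features, 2 each rose at 12 h, 0 were called at 48 h against 0 h and 2 each fell from 12 h to 48 h. They were casp8 and cdkn1a in the former, which encode an initiator caspase and a cell cycle inhibitor, and il10 and il13ra2 in the latter, an anti-inflammatory cytokine and a decoy receptor.

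Median log2 differences at 48 h against 0 h were -0.70 for the interferon-stimulated genes, 0.25 for the proteasome, -0.02 for ubiquitin and cell death and -0.22 for JAK-STAT and receptor genes, beside 0.13 over all tested features. At 12 h against 0 h the medians were 0.57, 0.70, 0.23 and 0.36 in the same order, beside -0.07 over all tested features. At an unadjusted p under 0.05, limma gave 11, 15, 5 and 1 genes of these lists at 48 h against 0 h. Of all tested features, 11.1% had such a p. At 12 h against 0 h it gave 14 of 39, 36 of 40, 4 of 17 and 9 of 21, beside 15.9% of all tested features. A feature that stands for more than 1 listed gene counts each time in the list counts above. Counted once each, 29 list features were called at 12 h. That number became 1 on leaving out 12 h library 3, 2 and 3 on leaving out control library 1 or 2, and 4 on leaving out 12 h library 2. It was 17 and 16 on leaving out 48 h library 2 or 3. At 48 h against 0 h the count became 1 without control library 3. The members' own differences at 48 h were 4.54, 3.38 and 5.14. They are a description only, since the rule chose the members for high values at 48 h over the controls. Nothing is read from their distance to the list medians.

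Cell type markers were called at 12 h against 0 h and from 12 h to 48 h, and none at 48 h against 0 h. At 12 h against 0 h, limma called 3 of 16 proximal tubule markers lower. It called 1 each of the erythroid, neutrophil, podocyte and muscle markers lower, and 1 monocyte or macrophage marker lower and 1 higher. List medians of the log2 difference were -0.85 for proximal tubule, -1.32 for erythroid, -1.37 for podocyte and -1.33 for muscle markers. They were -0.72 for monocyte or macrophage and 0.24 for neutrophil markers, beside -0.07 over all tested features. The neutrophil list as a whole thus did not follow its call. Of all tested features, 0.831% were called lower and 0.592% higher. Limma called 0 of the T and NK, B and plasma cell and thrombocyte markers at that time. Of these, 3 of 15, 1 of 5 and 1 of 5 had an unadjusted p under 0.05, beside 15.9% of all tested features. In the other lists, 7 of 9 erythroid, 7 of 16 proximal tubule and 6 of 11 monocyte or macrophage markers had such a p. So had 4 of 7 podocyte, 3 of 8 neutrophil and 3 of 5 tested muscle markers. At 48 h against 0 h limma called 0 markers of any of the 9 lists. There, an unadjusted p under 0.05 was found for 5 erythroid, 4 T and NK, 4 proximal tubule and 3 neutrophil markers. It was also found for 2 B and plasma cell, 2 monocyte or macrophage and 0 thrombocyte, podocyte and muscle markers. Of all tested features, 11.1% had such a p. At 48 h against 12 h, 2 of 15 T and NK markers fell, and 3 of 11 monocyte or macrophage markers rose. So did 2 of 7 podocyte, 1 of 8 neutrophil and 1 of 5 tested muscle markers. The T and NK list as a whole did not fall, with a median log2 difference of 0.39, beside 0.21 over all tested features. The medians of the lists with a rise were 0.91, 1.08, 0.37 and 0.90. Of all tested features, 0.611% fell and 1.07% rose. The 6 muscle markers found summed to between 294 and 354 TPM at 0 h, 79.3 and 126 at 12 h, and 172 and 283 at 48 h.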

How the data were processed

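Kidney RNA was sequenced in 9 libraries, 3 per time. The authors deposited a table of values per assembled feature, with its length, transcripts and protein annotations. The deposited values were read as TPM from their totals of 993873 to 996068 per library, since the header names no unit, and neither assembler nor counter is given in the sources used here. The step for each length was estimated from short single-transcript features, which gave the depths in reads. Low values of such features fell within 0.1 of whole reads for 98.0% to 98.3% of cases. The members, assembled as 12, 2 and 4 transcripts, were outside that check. All reads given are estimates, so no count test was run.

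Tests used limma 3.58.1 in R 4.3.3 on log2(TPM + 1) over features of at least 1 TPM in at least 3 libraries (45473), with all 9 libraries, 1 coefficient per group, trended robust variances and Benjamini-Hochberg adjustment over all tested features. A fold change on this scale understates that of low features. Calls have an adjusted p under 0.05. The script was tested on simulated data. All members are named, the uncharacterized one by its feature ID. The members and gene lists were chosen with earlier results of these data known. Features in one read cluster may share reads. Interferon, proteasome, ubiquitin and cell death, and JAK-STAT lists and 9 marker lists were matched by gene name or by the start of the protein description. Where several features with a fish match fitted a gene, the 1 with the highest mean TPM over all 9 libraries was used. Summed marker levels leave out the other features. Sequences were not used here.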

Additional observations from a re-analysis of the deposited data

How the results depend on the processing

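The number of features raised at both times was between 2 and 4 with a 1.5-fold or 3-fold margin, a floor of 2 or 10 TPM, 0.1 TPM added, quantile-normalised values or features without a protein match, and between 3 and 10 when each library was left out. For 48 h against 12 h, limma called 485 features higher and 278 lower. The counts were 934 and 430 with a 5 TPM filter, 264 and 358 after quantile normalization, 194 and 132 without the variance trend, 273 and 165 with control libraries 1 and 2 averaged, and 18 and 17 at an adjusted p under 0.01. Leaving out each library gave 18 to 1703 higher and 11 to 789 lower. Quantile normalization moved the median difference over all features from 0.214 to 0.038 and the share of calls that were higher from 63.6% to 42.4%. Members called higher stayed at 0 in every setting, and members called lower were 0 to 1 when each library was left out. The median member difference was -0.12, and -0.34 to 0.19 when each library was left out. LOC101063328 kept its direction in every setting. When each library was left out, the S15 member ran from -0.31 to 0.19, turning sign without 12 h library 1 (0.098) or 48 h library 2 (0.189), and the reverse transcriptase member ran from -0.34, without 12 h library 2, to 1.42. List genes called at 12 h numbered 29, and 16 after quantile normalization, 3 without the trend, 12 with only the compared groups, 3 with controls 1 and 2 averaged, 3 at an adjusted p under 0.01 and 1 to 29 when each library was left out. At 48 h against 0 h the count of list genes was 0, and 0 to 1 when each library was left out. The list and family settings were chosen after seeing the data. The causes were not tested.

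Libraries with the same number in different groups gave 9 correlations of their deviations from -0.224 to 0.373. Between 12 h and 48 h these were 0.373, 0.217 and 0.062, against -0.344 to 0.241 for unlike numbers. Deviations from means of 3 libraries cannot settle whether the numbers mark pairs, and the main fit used no block. With the replicate number as a block, 167 features were called higher and 118 lower at 48 h against 12 h, 12 list genes were called at 12 h, and 1 member, LOC101063328, was called lower (-1.42, limma adjusted p = 0.0312).

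Precision is limited by 3 libraries per group and, for the reverse transcriptase member, by control values of a few reads.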
